A study of Rattus norvegicus with 8 samples.

Results

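The genes by which the proximal tubule takes filtered protein back from the urine were examined in kidneys of 4-week-old rats, 8 in all. Every animal belonged to HSRA, a line bred out of heterogeneous stock rats as a model of unilateral renal agenesis, the failure of a kidney to form. The HSRA-S group held the solitary kidneys of 4 animals and the HSRA-C group, the control, a kidney from each of 4 animals with both. The controls come from the same model, and no other strain, treatment or transgene is named in the labels. Sex is not given, and the whole organ was used. The genes were fixed by name as Lrp2, Cubn, Amn, Dab2, Clcn5, Lrpap1, Ocrl and Ehd1, and every probe set of the Rat Gene 1.1 ST array annotated to exactly 1 of these symbols was taken. This gave 8 probe sets for 7 genes, of 29214 probe sets and 17245 genes with a symbol of their own on the array. Ehd1 had no probe set of its own and is not among the 7. All 7 lay above the filter that left out the dimmest 20% of genes. Each kidney was measured on 1 array, and levels are log2 of the deposited intensity.

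Plasma proteins that pass the glomerular filter are bound at the brush border of the proximal tubule by the giant receptors megalin, encoded by Lrp2, and cubilin, encoded by Cubn. Cubilin has no membrane anchor of its own and is carried to the surface by amnionless, encoded by Amn, while the chaperone encoded by Lrpap1 keeps ligands off megalin until it has left the endoplasmic reticulum. Dab2 links the receptor tails to clathrin, the chloride-proton exchanger encoded by Clcn5 supports acidification of the endosome in which ligands are released, and the phosphatidylinositol phosphatase encoded by Ocrl lets the receptors recycle. Loss of Clcn5 or Ocrl in people causes low-molecular-weight proteinuria, in Dent disease and Lowe syndrome.

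The arrays were alike in overall signal, with median intensities of 30.8 to 32.3 and correlations of 0.987 to 0.995. The kidneys were not alike in cell type markers. The mean log2 level of 18 proximal tubule markers was 10.24 to 10.52 in HSRA-S and 10.15 to 10.36 in HSRA-C, that of 9 collecting duct and inner medulla markers 7.37 to 8.06 and 7.71 to 8.57. HSRA-S replicate 4 had the highest proximal and the lowest collecting duct mean of all 8 arrays, and HSRA-C replicates 3 and 4 had the lowest proximal and the highest collecting duct means. Slc34a1, the sodium-phosphate cotransporter that marks the proximal tubule, was at 11.83 to 12.09 in every kidney. Slc14a2, the urea transporter of the inner medulla, ran from 4.44 in HSRA-S replicate 4 to 8.861 and 8.997 in HSRA-C replicates 3 and 4. The differences of the 7 genes below are therefore given also without these 3 kidneys. Aqp2, the water channel of the collecting duct, was at 9.70 to 10.03 in HSRA-S and 9.95 to 10.66 in HSRA-C. All 6 podocyte, all 6 endothelial and all 7 stromal markers tested were below 0 in the difference of HSRA-S minus HSRA-C, and all 7 leukocyte markers were above 0. In whole kidney, fewer cells of a type and less RNA per cell cannot be told apart.

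None of the uptake genes differed between solitary and control kidneys beyond what the test could call. Lrp2 was 1.04-fold and Cubn 1.02-fold higher in HSRA-S, and neither was distinguishable from no difference. Amn was 1.18-fold, Clcn5 1.14-fold, Dab2 1.13-fold and Lrpap1 1.07-fold higher, and Ocrl stood at 0.963 times the control level. None of the 7 passed limma's test at a Benjamini-Hochberg adjusted p under 0.05, as none of all 13796 genes tested did (0% called, smallest adjusted p = 0.0558), and the smallest adjusted p among the 7 was 0.377. At an unadjusted p under 0.05 the test gave 1 of the 7, Clcn5, on the higher side, where 7.36% of all genes were, and 0 on the lower side, where 4.69% of all genes were. The difference was above 0 for 6 of the 7 genes and for 55.5% of all genes. The median difference was 0.10 over the 7 genes and 0.015 over all genes tested.

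**Figure D1:**
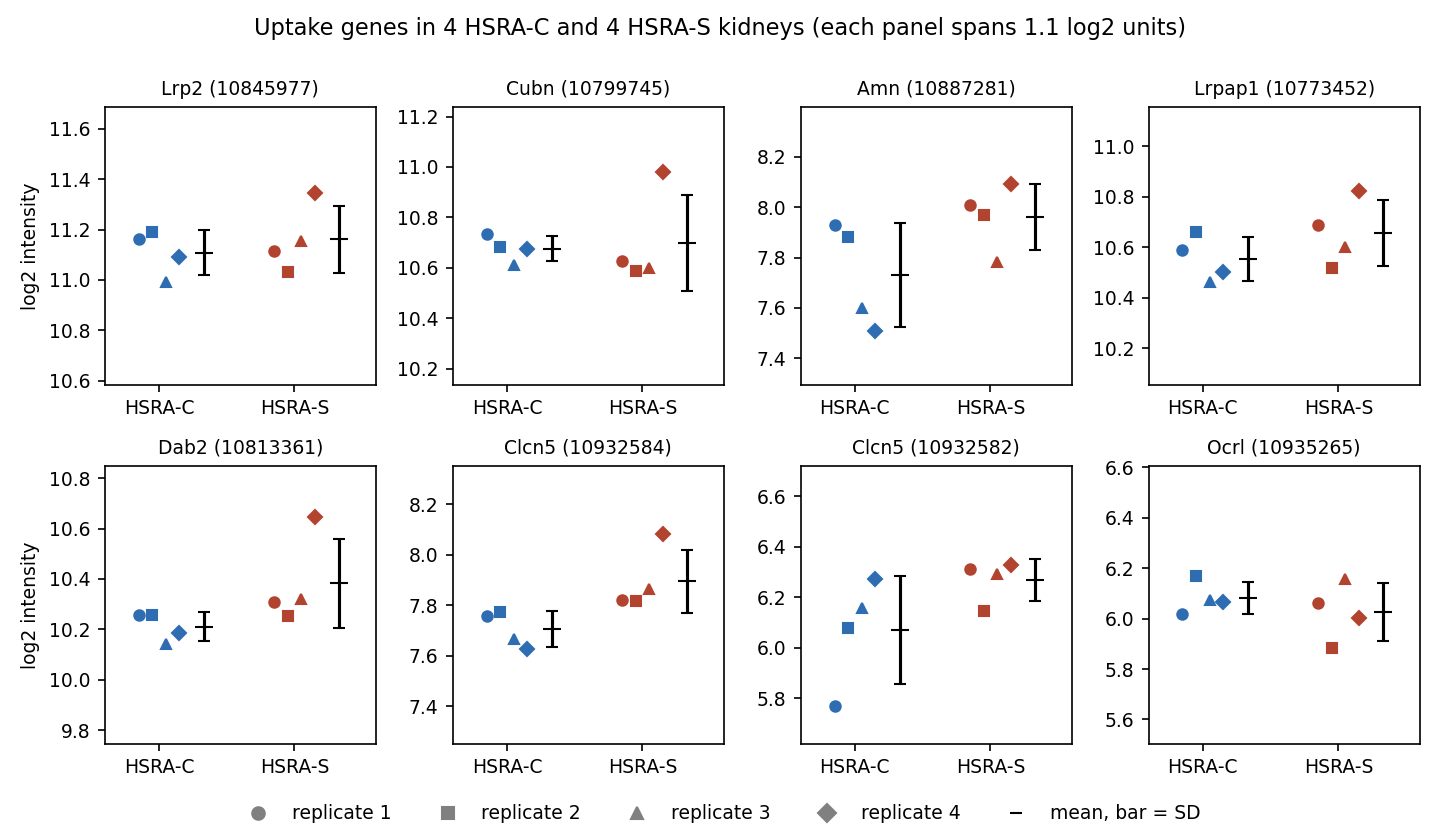
Log2 intensity (y axis) of the 8 probe sets in 4 HSRA-C kidneys (blue) and 4 HSRA-S kidneys (red), with 1 point per kidney, the marker shape giving the replicate number and the black mark and bar giving mean and SD. HSRA-S replicate 4 is the highest point in 7 of the 8 panels, all but that of Ocrl, and only the brighter Clcn5 probe set has groups that do not overlap.

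Megalin was measured by probe set 10845977 of Lrp2, a gene on chromosome 3. Its log2 level was 11.12, 11.03, 11.16 and 11.34 in HSRA-S replicates 1 to 4, and 11.16, 11.19, 10.99 and 11.09 in HSRA-C replicates 1 to 4. The groups overlapped, with HSRA-S replicate 4 highest and HSRA-C replicate 3 lowest. The means were 11.16 ± 0.13 and 11.11 ± 0.088 (SD, n = 4 each), a difference of 0.053 with an SE of 0.080 and an adjusted p of 0.826 (limma). The 95% interval of the ratio ran from 0.917 to 1.17, so a difference beyond 1.17-fold lies outside it. Without HSRA-S replicate 4 the difference was -0.0076, without HSRA-C replicates 3 and 4 it was -0.014, and without all 3 it was -0.075.

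Cubilin was measured by probe set 10799745 of Cubn on chromosome 17. The 4 HSRA-S kidneys were at 10.63, 10.59, 10.60 and 10.98, and the 4 HSRA-C kidneys at 10.73, 10.68, 10.61 and 10.67. HSRA-S replicate 4 stood above all other kidneys, and HSRA-S replicates 2 and 3 were the lowest. The group means were 10.70 ± 0.19 and 10.68 ± 0.049 (SD, n = 4 each), with a difference of 0.023 (SE 0.091, limma adjusted p = 0.945). The interval of the ratio was 0.882 to 1.17. Leaving out HSRA-S replicate 4 turned the difference to -0.072 (SE 0.061), leaving out HSRA-C replicates 3 and 4 gave -0.0094, and leaving out all 3 gave -0.10.

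Amnionless, the membrane partner of cubilin, had the widest difference of the 7 genes over all 8 arrays, but not without the 3 kidneys that stood apart. Probe set 10887281 of Amn, a gene on chromosome 6, read 8.01, 7.97, 7.78 and 8.09 in HSRA-S and 7.93, 7.88, 7.60 and 7.51 in HSRA-C. The groups overlapped: HSRA-C replicates 1 and 2 lay above HSRA-S replicate 3, and HSRA-C replicates 3 and 4 lay below every other kidney. The means were 7.96 ± 0.13 and 7.73 ± 0.21 (SD, n = 4 each). The difference of 0.23 had an SE of 0.11, an unadjusted p of 0.0556 and an adjusted p of 0.423 (limma), and the interval of the ratio was 0.995 to 1.39. Leaving out single kidneys gave unadjusted p-values from 0.0204, without HSRA-C replicate 1, to 0.159, without HSRA-C replicate 4, of which 3 of 8 were under 0.05. Without HSRA-C replicates 3 and 4 the difference was 0.058, and with HSRA-S replicate 4 left out as well it was 0.015. Those control kidneys were also the pair with the lowest proximal tubule and highest collecting duct markers, whose part in the Amn difference was not tested. Whether Amn and Cubn differed from each other in their response was not tested.

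The stretches before the start sites of the 2 receptors and of amnionless are shown because these 3 proteins act together. Each is the 250 bases before the RefSeq start in build GRCr8, written 5′ to 3′ on the strand of the gene in lower case. Lrp2 lies at chr3:74754536-74754785 on the minus strand, Cubn at chr17:81501695-81501944 on the minus strand and Amn at chr6:136132317-136132566 on the plus strand.
Lrp2: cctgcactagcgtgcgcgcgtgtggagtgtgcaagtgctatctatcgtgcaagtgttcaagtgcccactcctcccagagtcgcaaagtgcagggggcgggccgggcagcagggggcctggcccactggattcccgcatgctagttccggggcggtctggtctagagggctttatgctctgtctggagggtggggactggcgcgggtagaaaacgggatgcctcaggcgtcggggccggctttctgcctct
Cubn: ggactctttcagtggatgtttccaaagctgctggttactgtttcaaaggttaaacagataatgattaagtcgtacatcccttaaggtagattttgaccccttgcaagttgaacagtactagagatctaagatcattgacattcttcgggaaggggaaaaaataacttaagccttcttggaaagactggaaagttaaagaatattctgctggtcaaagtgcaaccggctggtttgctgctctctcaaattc
Amn: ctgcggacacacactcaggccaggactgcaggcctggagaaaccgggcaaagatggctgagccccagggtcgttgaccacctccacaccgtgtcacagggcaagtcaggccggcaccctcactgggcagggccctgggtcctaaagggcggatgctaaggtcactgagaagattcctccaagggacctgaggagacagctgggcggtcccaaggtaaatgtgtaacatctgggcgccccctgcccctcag
The motifs searched, on both strands, were the DR1 site bound by nuclear receptors such as HNF4A, which is AGGTCA repeated with 1 free base between and was allowed up to 2 mismatches, and the E-box CACGTG and the TATA box TATAAA without mismatch. None of these was found in the Lrp2, Cubn and Amn stretches, nor in those of Dab2, Lrpap1 and both starts listed for Clcn5. Over all 33469 such stretches, 3.15% matched the DR1 site, 5.59% the E-box and 12.9% the TATA box. In base composition, 40.0% of the Cubn stretch was G or C, against 64.4% for Lrp2 and 62.8% for Amn. Start sites were matched for 6 of the 7 genes.

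The megalin chaperone Lrpap1, on chromosome 14, followed megalin. Its probe set 10773452 was at 10.69, 10.52, 10.60 and 10.82 in HSRA-S and 10.59, 10.66, 10.46 and 10.50 in HSRA-C. HSRA-S replicate 4 was again highest and HSRA-C replicate 3 lowest, and the groups overlapped. The means were 10.66 ± 0.13 and 10.55 ± 0.089 (SD, n = 4 each), with a difference of 0.10 (SE 0.080, limma adjusted p = 0.623). It was 0.048 without HSRA-S replicate 4, 0.033 without HSRA-C replicates 3 and 4, and -0.023 without all 3.

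Dab2, the clathrin adaptor of the receptor tails on chromosome 2, was read by probe set 10813361. HSRA-S kidneys were at 10.31, 10.26, 10.32 and 10.65 and HSRA-C kidneys at 10.26, 10.26, 10.14 and 10.19. Apart from HSRA-S replicate 4, the values of both groups lay within a narrow band, and HSRA-S replicate 2 lay just below HSRA-C replicates 1 and 2. The means were 10.38 ± 0.18 and 10.21 ± 0.058 (SD, n = 4 each). The difference was 0.17 with an SE of 0.088, an unadjusted p of 0.0800 and an adjusted p of 0.459 (limma). Leaving out single kidneys gave unadjusted p-values from 0.0485, without HSRA-S replicate 2, to 0.212, without HSRA-S replicate 4. Without HSRA-S replicate 4 the difference was 0.084, without HSRA-C replicates 3 and 4 it was 0.12, and without all 3 it was 0.037.

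Clcn5, on the X chromosome, had a pair of probe sets. The brighter one, 10932584, was at 7.82, 7.82, 7.86 and 8.08 in HSRA-S and at 7.76, 7.77, 7.67 and 7.63 in HSRA-C. Every HSRA-S kidney lay above every HSRA-C kidney, although HSRA-S replicates 1 and 2 exceeded HSRA-C replicate 2 by little. Of all genes tested, 4.12% had groups that did not overlap with HSRA-S on the higher side, and 2.17% with HSRA-S on the lower side, where none of the 7 genes lay. The means were 7.90 ± 0.13 and 7.71 ± 0.070 (SD, n = 4 each), a ratio of 1.14 with an interval from 1.02 to 1.28. The log2 difference was 0.19 (SE 0.075, unadjusted p = 0.0299, limma adjusted p = 0.377). The unadjusted p was 0.0784 without HSRA-S replicate 4 (difference 0.13), 0.0686 without HSRA-C replicate 3 (0.18) and 0.0786 when HSRA-C replicate 4 was left out (0.16). Without HSRA-C replicates 3 and 4 together the difference was 0.13 (unadjusted p = 0.206), and without all 3 it was 0.069 (unadjusted p = 0.386).

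The dimmer Clcn5 probe set, 10932582, read 6.31, 6.15, 6.29 and 6.33 in HSRA-S and 5.77, 6.08, 6.16 and 6.27 in HSRA-C. It was higher in HSRA-S by 0.20 (SE 0.11) with an adjusted p of 0.560 in the limma fit over all probe sets. The order of the control kidneys differed between the probe sets: HSRA-C replicate 1 was lowest and replicate 4 highest on the dimmer one, whereas replicate 4 was lowest on the brighter one. The difference on the dimmer probe set was 0.10 without HSRA-C replicate 1, and leaving out HSRA-C replicates 3 and 4 gave 0.34. RefSeq lists more than 1 start for Clcn5, and which transcripts each probe set reads was not analysed here.

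Ocrl, also on the X chromosome, was the gene that did not share the pattern. Probe set 10935265 was at 6.06, 5.88, 6.16 and 6.003 in HSRA-S and 6.02, 6.17, 6.07 and 6.06 in HSRA-C. The lowest value was in HSRA-S replicate 2 and the highest in HSRA-C replicate 2, and HSRA-S replicate 4 lay below the mean of the series. The means were 6.03 ± 0.12 and 6.08 ± 0.064 (SD, n = 4 each), with a difference of -0.054 (SE 0.072, limma adjusted p = 0.802). The interval of the ratio was 0.862 to 1.08. The difference was -0.046 without HSRA-S replicate 4, -0.066 without HSRA-C replicates 3 and 4, and -0.058 without all 3. Sex-linked marker genes were not analysed here.

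**Figure D2:**
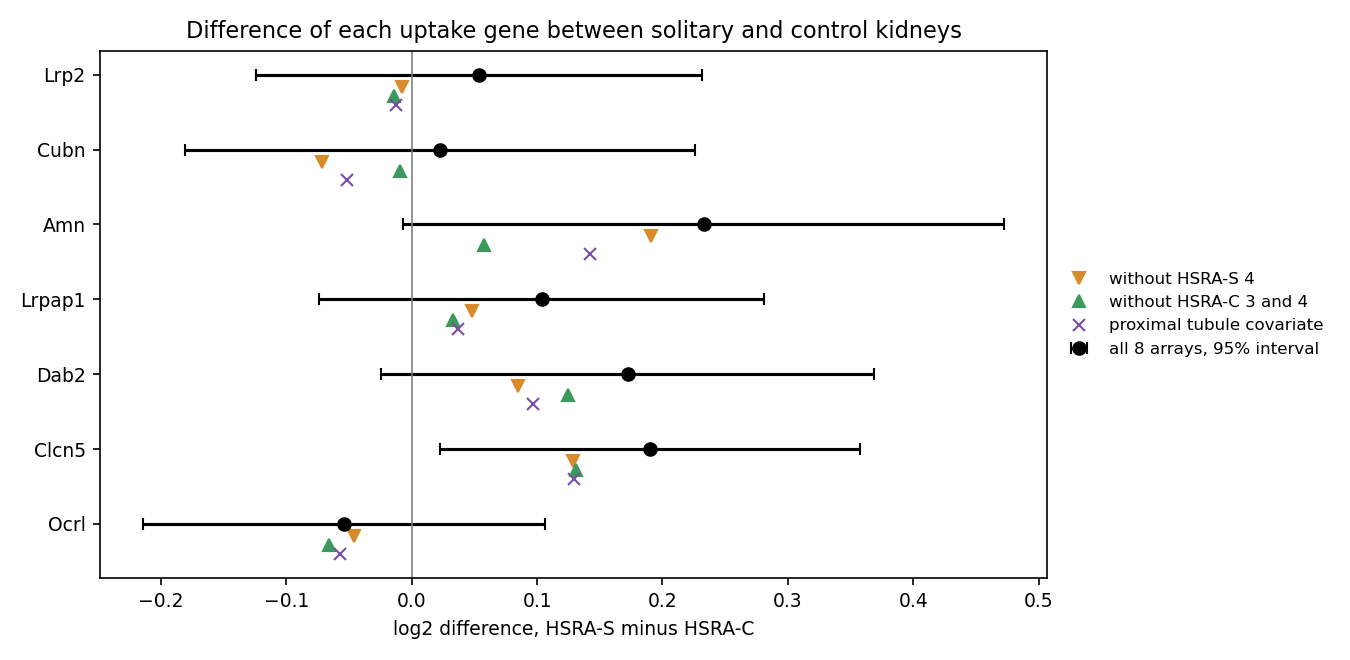
Log2 difference of HSRA-S minus HSRA-C (x axis) for each of the 7 genes, as black points with 95% intervals from limma on all 8 arrays, and as coloured marks without HSRA-S replicate 4, without HSRA-C replicates 3 and 4, or with the proximal tubule marker mean as a covariate. Only the interval of Clcn5 lies wholly above 0, and the coloured marks of Lrp2 and Cubn lie below 0.

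With the proximal tubule marker level of each kidney in the fit, the differences of Lrp2, Cubn, Amn, Dab2, Clcn5 and Lrpap1 were lower. That of Ocrl hardly moved, from -0.054 to -0.057. With the mean of the 18 markers as a covariate, an alternative chosen with the data known, the differences were -0.012 for Lrp2, -0.051 for Cubn and 0.037 for Lrpap1. Under the same covariate Amn was at 0.14, Clcn5 at 0.13, Dab2 at 0.097 and Ocrl at -0.057, and 0 of the 7 had an unadjusted p under 0.05. The SEs of these differences ran from 0.059 for Clcn5 to 0.081 for Amn. None of the 18 markers is among the 7 genes. The markers themselves did not move as a block: 11 were above 0 and 7 below, with a median of 0.14 and a range from -0.28 to 0.47.

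**Figure D3:**
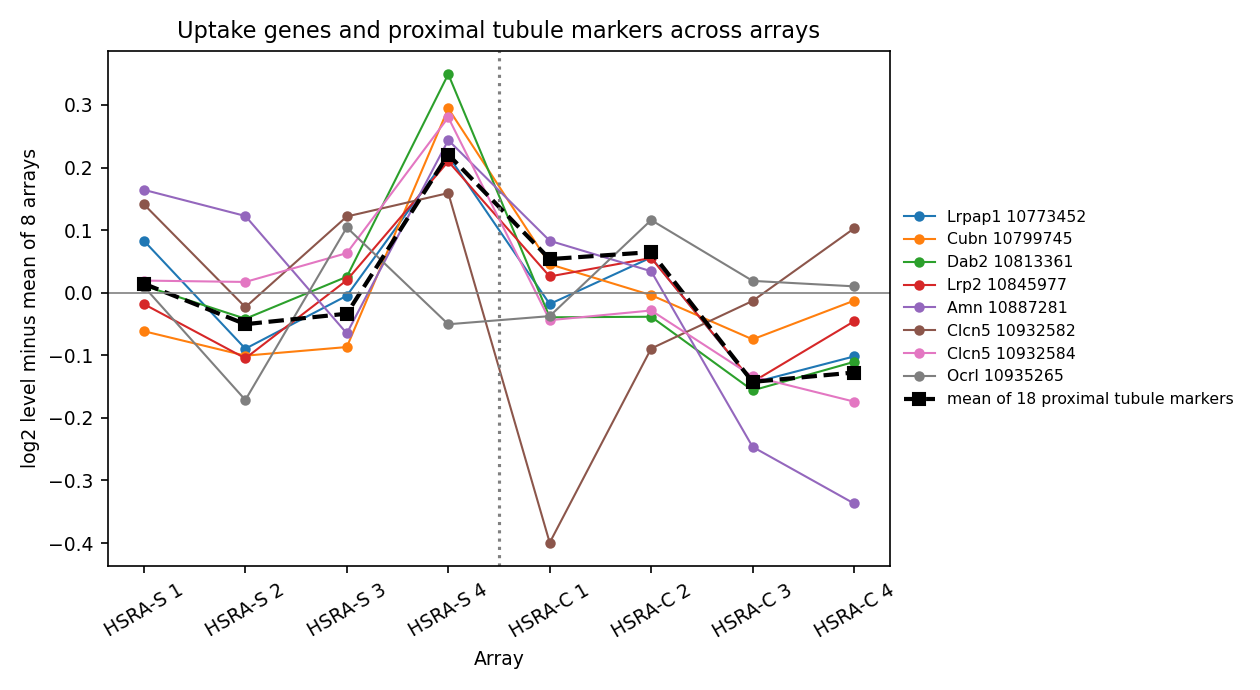
Log2 level of each of the 8 probe sets minus its own mean over the 8 arrays (y axis), by array (x axis), with the mean of 18 proximal tubule markers as a dashed black line; lines join the values of 1 item and imply no order of the arrays. Most items peak in HSRA-S replicate 4, at 0.22 for the marker mean and 0.35 for Dab2, and most lie below 0 in HSRA-C replicates 3 and 4. Cubn is lowest in HSRA-S replicate 2 and the dimmer Clcn5 probe set in HSRA-C replicate 1, while Ocrl does not peak in HSRA-S replicate 4.

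Across the 8 kidneys, the genes were compared by the root mean square difference between their centred log2 profiles, where a small value means a like profile. The closest pairs among the 7 were Dab2 with Clcn5 at 0.042 and Lrp2 with Lrpap1 at 0.045, followed by Lrp2 with Cubn at 0.061. The farthest pair was Amn with Ocrl at 0.23. Seen from Lrp2, Lrpap1 ranked 9 of 13795 genes, Cubn 74, Dab2 211 and Clcn5 396, while Ocrl ranked 3213 and Amn 7018. Seen from Cubn, Lrp2 ranked 34, Dab2 132, Lrpap1 187, Clcn5 641, Ocrl 5354 and Amn 7283. By this measure Amn stood at 0.174 from Cubn and 0.155 from Lrp2, about the medians of 0.170 and 0.154 over all genes. The measure also grows with the size of a gene's swings, and Amn had the widest range of the 8 probe sets, 0.58. Whether the profile of Amn differed in shape was not tested.

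With unnamed gene models skipped, the 5 genes nearest to Lrp2 by this measure were Ndfip2, Chrac1, Aga, Lrfn1 and Xpnpep3. They stood at 0.038 to 0.042 against a median of 0.15 over all genes. Aga encodes the lysosomal enzyme aspartylglucosaminidase and Ndfip2 an adaptor of Nedd4-type ubiquitin ligases. The 5 nearest to Cubn, chosen in the same way, were Gnptg, Cmbl, Rufy3, Mmel1 and Lin52, at 0.029 to 0.042 against a median of 0.17. Gnptg encodes a subunit of the enzyme that tags lysosomal hydrolases for their receptor, and Mmel1 a membrane metallopeptidase. Mmel1 was dim, at log2 levels of 3.56 to 4.03, close to the filter at 3.63. Functions are given for some of these genes only, and whether the nearest genes share a function was not tested. These values are descriptions over 8 arrays that include the high HSRA-S replicate 4.

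Other genes of the uptake route, the receptor family and proximal tubule regulation came from 7 lists, in which 127 genes were tested. None passed at an adjusted p under 0.05 (limma, 0% of all genes). At an unadjusted p under 0.05, 31 were higher in HSRA-S and 3 lower, where 7.36% and 4.69% of all genes were. The higher side held 24.4% of the 127. The lists were drawn up with earlier results of these data known, so this contrast is a description and not a test. The median difference was 0.074, and 89 of the 127 were above 0. Leaving out either HSRA-C replicate 3 or 4 brought the 31 to 18, and leaving out both to 7. The count over all genes, both directions together, fell as well. It went from 1663 to 1010 without HSRA-C replicate 3, 1017 without replicate 4 and 669 without both. The 31 became 28 without HSRA-S replicate 4 and 20 with the difference between proximal tubule and collecting duct marker means as a covariate. The count of 3 became 1 without HSRA-S replicate 4, HSRA-C replicate 3 or HSRA-C replicate 4, and 1 without both HSRA-C replicates.

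At the clathrin coat, 3 of 19 genes were higher at an unadjusted p under 0.05 and 0 lower, with a median of 0.070. Over all genes tested, 7.36% were higher and 4.69% lower at that p. Hip1r, which ties coats to actin, was at a difference of 0.22 (SE 0.076), the endocytic scaffold Eps15 at 0.18 and the coat assembly protein Snap91 at 0.31. Among 12 adaptors and motors that bind receptor tails, 2 were higher and 1 lower. Pdzk1, a scaffold of brush border transporters, was at 0.30 (SE 0.11), Mapk8ip1 at 0.16 and the ubiquitin ligase Nedd4l at -0.17. The motor Myo6, which draws coated vesicles inward, was at 0.074, and Dab1, the relative of Dab2, at 0.14. The count of the clathrin list was 1 without HSRA-S replicate 1 or without HSRA-C replicate 3, and that of the adaptor list was 0 without HSRA-C replicate 3 or 4 and 1 without HSRA-S replicate 2 or HSRA-C replicate 1.

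Sorting in early and recycling endosomes was represented by 32 genes, of which 5 were higher and 1 lower at an unadjusted p under 0.05. The shares of all genes were 7.36% higher and 4.69% lower. The sorting nexin Snx5 was at 8.19, 7.89, 7.94 and 7.997 in HSRA-S and 7.73, 7.82, 7.60 and 7.54 in HSRA-C, without overlap (difference 0.33, SE 0.087, limma adjusted p = 0.331). The retromer subunit Vps26a was at 0.22 (SE 0.065), also without overlap. The other retromer subunits Vps35 at 0.24 and Vps29 at 0.16, named after their values were seen, and the Rab11 effector Rab11fip5 at 0.17 made up the 5. In the family of Ehd1, Ehd4 was at -0.18 (SE 0.078), Ehd2 at -0.20 (SE 0.12) and Ehd3 at 0.22 (SE 0.18). Inpp5b, the close relative of Ocrl, was at 0.10 (SE 0.082), and Rab38, a GTPase of endosome-related organelles, at 0.17 (SE 0.090). The count of 5 was 2 without HSRA-C replicate 3, 3 without HSRA-C replicate 4 and 1 without both.

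Genes of chloride and proton transport into endosomes, the step Clcn5 serves, gave 9 of 21 higher and 0 lower, with a median of 0.065. Of all genes, 7.36% were higher and 4.69% lower at the same unadjusted p. The proton pump subunit Atp6v1c1 was at 8.35, 8.38, 8.31 and 8.48 in HSRA-S and 8.13, 8.16, 8.04 and 8.04 in HSRA-C, without overlap (difference 0.29, SE 0.063, limma adjusted p = 0.331). Atp6v1a, the catalytic pump subunit, was at 0.23 (SE 0.065). Of the relatives of Clcn5, the lysosomal exchanger Clcn7 was at 0.24 (SE 0.071), Clcn4 at 0.41 (SE 0.15) and Clcn3 at -0.0077 (SE 0.083). The count of 9 was 4 without HSRA-C replicate 4, and leaving out replicate 3 of that group as well gave 2. Which cells of the whole kidney the values of this list come from was not tested.

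Downstream of uptake, 9 of 20 genes of ligand handling and lysosomal breakdown were higher and 0 lower, with a median of 0.17. The same threshold held 7.36% of all genes on the higher side and 4.69% on the lower. Lgmn, the lysosomal endopeptidase legumain, was at 10.01, 9.90, 9.87 and 10.20 in HSRA-S and 9.65, 9.75, 9.20 and 9.23 in HSRA-C, without overlap (difference 0.54, SE 0.13, limma adjusted p = 0.331). The vitamin D-degrading hydroxylase Cyp24a1, whose substrate enters by megalin, was at 0.80 with an SE of 0.26 and overlapped between groups. B2m, a filtered ligand of megalin that most cells also make, was at 0.19 (SE 0.063). Named after their values were seen, the vitamin B12 carrier Tcn2 was at 0.26, the cathepsin Ctsb at 0.25 and the cystine exporter Ctns at 0.37. Lysosomal genes are also high in macrophages, and 7 of 7 leukocyte markers tested were above 0, with list means of 6.27 to 6.88 in HSRA-S and 6.08 to 6.47 in HSRA-C. The part of leukocytes in these values was not tested. The count of 9 was 2 without HSRA-C replicates 3 and 4.

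In the list for the receptor family to which megalin belongs, 13 genes other than Lrp2 were tested and the median was -0.016. The list also holds Mesd and Ldlrad4, which are not receptors of that family. Lrp11 at 0.27 (SE 0.090) and the lipoprotein receptor Vldlr at 0.22 (SE 0.084) were higher at an unadjusted p under 0.05, the Wnt coreceptor Lrp5 was lower at -0.22 (SE 0.083), and Lrp1, which shares the chaperone Lrpap1 with megalin, was at -0.11 (SE 0.084). The count of 2 was 1 without HSRA-S replicate 1, HSRA-S replicate 4 or HSRA-C replicate 1. Over all genes, 7.36% were higher and 4.69% lower at that p. Of 10 regulators of proximal tubule genes, 1 was higher, which is near that share. That gene was the fatty acid sensor Ppara at 0.36 (SE 0.16). Its partner Rxra was at 0.16 (SE 0.075) and Hnf4a, a master regulator of the proximal tubule, at 0.20 (SE 0.095). Ppara reached 8.61 in HSRA-S replicate 4 against 8.05 to 8.09 in the other HSRA-S kidneys, and the count of 1 became 0 without HSRA-S replicate 1 or 4 or HSRA-C replicate 3 or 4, and 3 without HSRA-S replicate 3.

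**Figure D4:**
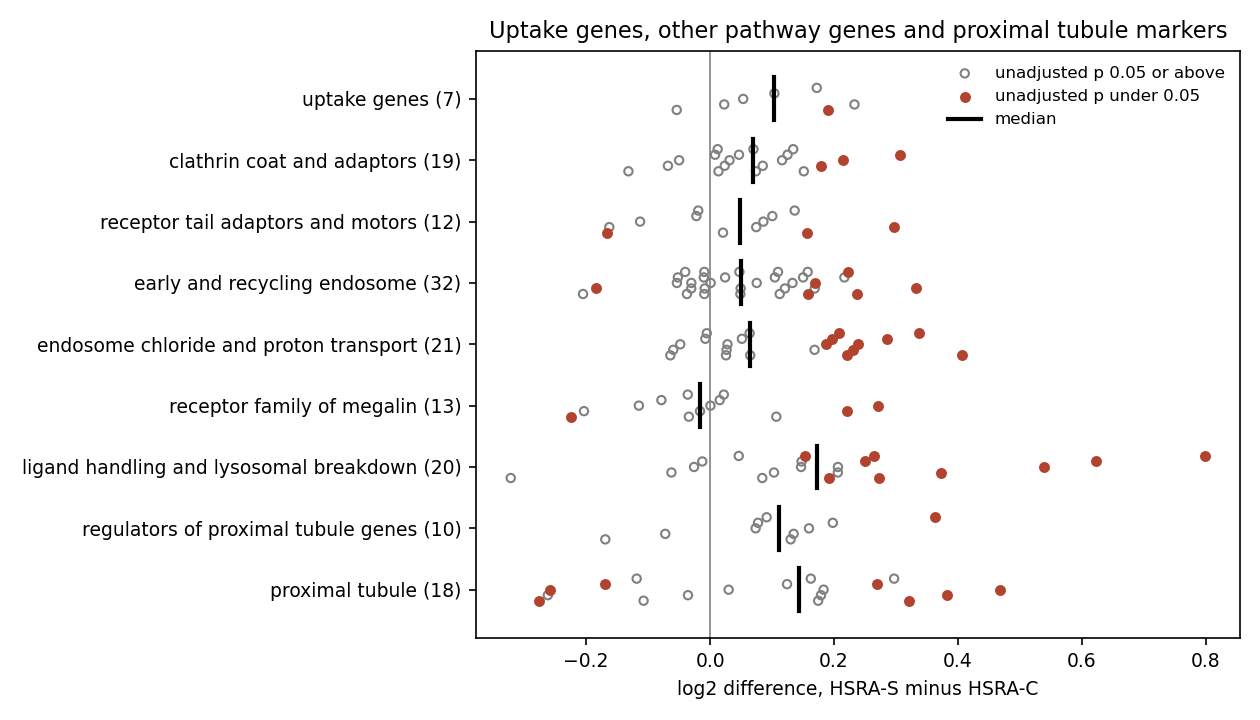
Log2 difference of HSRA-S minus HSRA-C (x axis) for the 7 uptake genes, 7 lists of other pathway genes and the proximal tubule markers (y axis, number of genes tested in brackets), with 1 point per gene, filled where the unadjusted p of limma was under 0.05, and a bar at the median. The filled points of the endosome transport and the ligand handling lists, 9 each, all lie to the right of 0.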

How the data were processed

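RNA of 8 whole kidneys was hybridised to Rat Gene 1.1 ST arrays, 1 per animal. Per the submitters' processing notes the values come from RMA (version: not given in the sources used here). What the authors deposited is an intensity per probe set, linear and between 2.118 and 9259, and log2 was taken before any test. RMA's background correction compresses differences of dim probe sets. Precision is limited by the number of arrays.

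Of 29214 probe sets, 18644 had 1 gene symbol in the platform annotation, 962 several and 9608 none. Each gene was represented by its probe set of highest mean, the dimmest 20% of genes (log2 mean below 3.63) were left out, and 13796 genes were tested. The groups were compared with limma 3.58.1 in R 4.3.3 (lmFit and eBayes, group as the only term), with Benjamini-Hochberg adjustment over all genes tested. Differences are HSRA-S minus HSRA-C in log2, with the SE of the fit. The fit was tested on simulated data. The labels call the samples biological replicates but give no pairing, so replicate numbers were not used. Values of the dimmer Clcn5 probe set and that of Ehd1 come from a fit over all probe sets. Sequences come from RefSeq tables of GRCr8.

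The genes, lists and alternatives were chosen with earlier results of these data known. Named genes are all genes of the set, the 3 of smallest p in each list, relatives fixed by name (some of which are not reported here), marker genes of medulla and proximal tubule (Slc5a2 is not analysed here), and for Lrp2 and Cubn the 5 nearest profiles. Other genes are said to be named after their values were seen. Unnamed gene models were skipped in the choice of the nearest profiles. Alternatives were other filters, probe set rules, variance models, scalings, an offset of 16, a replicate block, leaving out each kidney, and, chosen after seeing the data, leaving out the kidneys that stood apart and marker covariates.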

Additional observations from a re-analysis of the deposited data

Results flagged for a closer look

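In groups of 4 kidneys, a value was singled out where its gap to the nearest of the others, as a share of the group's range, exceeded Dixon's 95% critical value. Of 114 groups examined for 57 probe sets, genes and list means, 7 were singled out. Chance gives about 1 in 20, and the 7 are near that share. Of the 7, 6 concerned HSRA-S replicate 4. Cubn was at 10.98 in that kidney against 10.59 to 10.63 in the other HSRA-S kidneys. Ppara was at 8.61 against 8.05 to 8.09, and Slc34a1 at 12.09 against 11.83 to 11.86. Slc14a2 was at 4.44 against 6.85 to 7.22. The collecting duct and inner medulla mean was at 7.37 against 8.001 to 8.057, and the proximal tubule mean minus that mean at 3.14 against 2.20 to 2.26. These items are not all separate, since Slc14a2 enters the collecting duct mean, and that mean and Slc34a1 enter the difference of the means. The remaining one was the mean of the 13 genes in the list for the receptor family of megalin, at 6.70 in HSRA-C replicate 1 against 6.77 to 6.78 in the other HSRA-C kidneys. Lrp2, Dab2, Amn, Lrpap1 and Clcn5 were also highest in HSRA-S replicate 4, with gaps below that limit, those of Dab2 and Clcn5 only just.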

How the results depend on the processing

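None of the 7 genes passed at an adjusted p under 0.05 in any of the 24 alternatives run (limma, smallest adjusted p 0.256), and Amn, Dab2, Clcn5 and Ocrl kept the direction of their difference in all 24. Lrp2 turned to -0.0076 without HSRA-S replicate 4, -0.014 without HSRA-C replicates 3 and 4, -0.075 without all 3, -0.018 with the marker difference covariate and -0.012 with the proximal tubule covariate. Cubn turned to -0.0081 with array weights, -0.072 without HSRA-S replicate 4, -0.0094 without HSRA-C replicates 3 and 4, -0.10 without all 3, -0.059 with the marker difference covariate and -0.051 with the proximal tubule covariate. Lrpap1 turned to -0.023 without all 3. Leaving out single kidneys gave -0.0076 to 0.097 for Lrp2 and -0.072 to 0.060 for Cubn. The cause was not tested. The number of the 7 at an unadjusted p under 0.05, 1 in the comparison reported, was 2 with an intensity trend, 2 with trend and robust fit, 2 with array weights and 2 with the offset of 16. It was 0 after a further quantile normalization, 0 without HSRA-C replicates 3 and 4, 0 without all 3 and 0 with either covariate, and 0 to 2 when single kidneys were left out.

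Of all genes, 1 was called with the dimmest 50% left out, 1 with an intensity trend, 1 with trend and robust fit, 1 with array weights and 1 with the offset, and 0 when any single kidney was left out. The 1663 genes at an unadjusted p under 0.05 became 2895 probe sets when all probe sets were tested, 669 without HSRA-C replicates 3 and 4, 1002 without all 3, and 1010 to 1942 when single kidneys were left out, 1010 being without HSRA-C replicate 3, while HSRA-C replicate 4 left out gave 1017. The 31 higher pathway genes became 7, 6 and 20 without HSRA-C replicates 3 and 4, without all 3 and with the marker difference covariate, and 18 to 35 when single kidneys were left out. The 3 lower ones became 1 in the unmoderated test, 1 with the replicate block, 1 without HSRA-C replicates 3 and 4, 1 without all 3, 0 with the marker difference covariate and 1 to 4 when single kidneys were left out. Kidneys of the same replicate number correlated at -0.068, 0.070, 0.13 and -0.11 in their deviations from the group means, and only HSRA-S replicate 3 correlated best with its own number. With the replicate block 1586 genes had an unadjusted p under 0.05, 1 of the 7 did, which was Amn (unadjusted p = 0.0484) and not Clcn5 (0.0645), and 25 pathway genes did on the higher side.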

Other observations

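The probe set 10713222 is annotated to both Ehd1, the endosome recycling ATPase, and Atg2a, and was left out of the comparison for that reason. Its log2 level was 6.92, 6.91, 6.89 and 6.86 in HSRA-S replicates 1 to 4 and 6.84, 6.83, 6.82 and 6.84 in HSRA-C replicates 1 to 4. Every HSRA-S kidney lay above every HSRA-C kidney, but the difference was 0.065 with an SE of 0.052 and an adjusted p of 0.718 (limma over all probe sets). Unlike the uptake genes, it was lowest within HSRA-S in replicate 4. Which of both genes the signal comes from cannot be told apart.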
